A study of Homo sapiens with 24 samples.

Results

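The 10 mitotic kinesin genes KIF11, KIF14, KIF15, KIF18A, KIF20A, KIF22, KIF23, KIF2C, KIF4A and KIFC1 were followed through 8 groups of 3 arrays of BT-474 cells. They were chosen by name as a gene family, with earlier results of these data known, and each was read from probe sets annotated to that gene alone, taking the probe set with the highest mean over all 24 arrays. Of 19775 genes with a probe set of their own, 14335 passed a filter on low values (log2 level of at least 5 in at least 3 arrays), and all 10 kinesins were among them. Kinesins are motor proteins that use ATP to move along microtubules or to take their ends apart. The mitotic members build the bipolar spindle, bring chromosomes to its middle and organise the overlapping microtubules where a dividing cell is pinched apart. Their messages belong to the programme that is switched on in G2 and M phase and kept off in resting cells, so they are widely read as markers of proliferation in breast tumours.

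BT-474 is an established human breast cancer line with an amplified ERBB2 gene, which encodes the receptor tyrosine kinase HER2, and with an estrogen receptor. Cells carried HER2 siRNA or control siRNA, and each was given 10 nM estrogen or 0.001% ethanol as vehicle for 4 or 24 h, which makes the 8 groups. All groups were therefore transfected with an siRNA, all are of 1 cell line, and the labels do not give the siRNA sequences or how long before the hormone the siRNA was added. Values are log2 levels after RMA, a method that normalises arrays and combines the probes of a probe set. Each log2 difference stands with ± its standard error, from 1 limma fit over all 24 arrays, and p was adjusted over the 14335 genes. The labels do not say whether the 3 arrays of a group came from separate cultures, and each p-value here rests on array-to-array spread alone, with precision limited by the number of arrays.

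The siRNA target itself, ERBB2, showed -1.34 ± 0.06 between HER2 and control siRNA over the 4 conditions. The difference was -1.56 at 4 h and -1.34 at 24 h with vehicle, and -1.35 and -1.09 with estrogen. The 24 h effect minus the 4 h effect, averaged over hormone, was 0.24 ± 0.11 (adjusted p = 0.286, limma). From 4 to 24 h with HER2 siRNA and vehicle ERBB2 rose by 0.44 ± 0.11 (adjusted p = 0.021, limma). With control siRNA its estrogen difference at 24 h was -0.46 ± 0.11 (adjusted p = 0.0077, limma). The median level of an array lay between 5.28 and 5.36, and arrays of a group correlated at 0.991 to 0.997. The GAPDH 3' minus 5' probe set difference, a measure of RNA integrity, was 0.443 ± 0.060 (SD, n = 12) after HER2 siRNA and 0.305 ± 0.066 (SD, n = 12) after control siRNA. The same difference for ACTB was 1.40 ± 0.33 and 1.17 ± 0.29 (SD, n = 12 each), and was not used as a covariate. The luminal markers KRT8, KRT18, KRT19, EPCAM and CDH1 stood between 12.5 and 13.7, GATA3 between 11.4 and 13.0 (mean 12.6 with HER2 siRNA and 12.1 with control siRNA) and ESR1 between 8.60 and 9.62. The mean of 10 markers of fibroblasts, leukocytes and endothelium was 5.42 to 5.58 in arrays with HER2 siRNA and 5.34 to 5.52 with control siRNA, although COL1A1 reached 10.0 and VWF 7.80. Of these 10 markers LYZ, a leukocyte marker, differed most between the siRNAs, with a mean of 5.38 with HER2 siRNA and 4.31 with control siRNA, and the mean of the 3 leukocyte markers was 4.39 to 5.02 and 4.23 to 4.67. The part of these markers in the kinesin results was not tested. The labels of 3 arrays carry numbers apart from the other 21, namely replicate 1 of control vehicle 24 h, control estrogen 24 h and HER2 estrogen 4 h. Their ACTB differences were 1.78, 1.02 and 2.30, of which the first and last were the highest with their siRNA. In the kinesins the 3 arrays with the largest median deviation from their group mean were replicate 1 of HER2 vehicle 4 h (0.314, all 10 genes above), replicate 1 of control estrogen 24 h (-0.294, 9 of 10 below) and replicate 1 of HER2 vehicle 24 h (-0.277, all 10 below). Another 5 arrays had all 10 kinesins on 1 side of the group mean by less, among them replicate 3 of HER2 vehicle 24 h (0.208) and replicate 1 of control vehicle 24 h (-0.201).

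All 10 kinesins fell after HER2 siRNA. Averaged over hormone and time the median difference was -1.78, against about 0 over all genes tested, and 8 of the 10 fell by at least 2-fold. Over all genes 29.1% passed the test in the lower direction, and 2.32% passed it with a fall of at least 2-fold. For each of the 10, all 12 arrays with HER2 siRNA lay below all 12 arrays with control siRNA, a separation shown by 8.69% of the genes tested. With a whole-culture measurement, fewer cells in division and less RNA per dividing cell cannot be told apart.

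The motors that set up the spindle were KIF11, KIF15 and KIFC1. KIF11 (probe set 204444_at) is the tetrameric motor that pushes the spindle poles apart and is the target of the inhibitor monastrol. Its level ran from 8.84 through a median of 9.04 to 9.53 in the 12 control siRNA arrays, and from 6.69 through 7.42 to 7.89 in the 12 HER2 siRNA arrays. The groups were 0.95 apart at their closest, and the averaged difference was -1.74 ± 0.07 (limma, adjusted p = 7.72e-15). As a share of the control siRNA level, 29.9% remained (95% confidence interval 27.0 to 33.1%). KIF15 (219306_at) can hold a spindle bipolar when KIF11 is inhibited. It fell by 1.92 ± 0.10 on the log2 scale, from a control median of 6.95 to 5.24, with no array of either siRNA in the range of the other. KIFC1 (209680_s_at), the minus-end motor that focuses spindle poles and clusters extra centrosomes, lay between 8.03 and 8.44 with control siRNA and between 7.47 and 7.82 with HER2 siRNA. The ranges did not meet, but the difference was only -0.65 ± 0.04, so 63.7% of the control level remained (60.1 to 67.6%).

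Among the motors that act on chromosomes and on microtubule ends, KIF18A (221258_s_at), which dampens chromosome movements at the spindle equator, fell by 1.80 ± 0.07 on the log2 scale. KIF2C (209408_at), which takes microtubule ends apart and corrects faulty attachments, showed a difference of -1.52 ± 0.07, with 34.9% of the control level left. KIF4A (218355_at), a chromosome-arm motor that also limits the length of midzone microtubules with PRC1, fell by 1.75 ± 0.08. These 3 motors had gaps of 0.89 to 1.01 between their lowest control array and their highest HER2 siRNA array. KIF4A has a near-identical intronless copy, KIF4B, in the genome, and its signal may include that copy. KIF22 (202183_s_at), the DNA-binding motor that pushes chromosome arms away from the poles, changed least. It ran from 7.57 through 7.85 to 8.11 with control siRNA and from 7.29 through 7.43 to 7.52 with HER2 siRNA. Its ranges came within 0.05 of each other, and its difference of -0.42 ± 0.04 (adjusted p = 5.88e-09, limma) left 74.9% (70.8 to 79.3%).

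Of the motors of the midzone and of cytokinesis, KIF14 and KIF23 had the largest estimates of the 10, within the standard errors of KIF15. KIF14 (206364_at), which works with PRC1 and citron kinase at the end of division, went from a control median of 7.504 to 5.61. Its averaged difference of -2.02 ± 0.11 left 24.6% of the control level. KIF23 (204709_s_at), which forms the centralspindlin complex with RACGAP1, fell by 1.94 ± 0.10, and KIF20A (218755_at), which carries Aurora B to the midzone, fell by 1.80 ± 0.09. Genes with another probe set above the filter gave the same direction there, with -2.18 ± 0.12 for KIF14 (236641_at), -0.54 ± 0.07 for KIF22 (216969_s_at) and -1.42 ± 0.08 for KIF2C (211519_s_at). With the GAPDH difference as a covariate all 10 still passed the test and the median was -1.63.

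**Figure D1:**
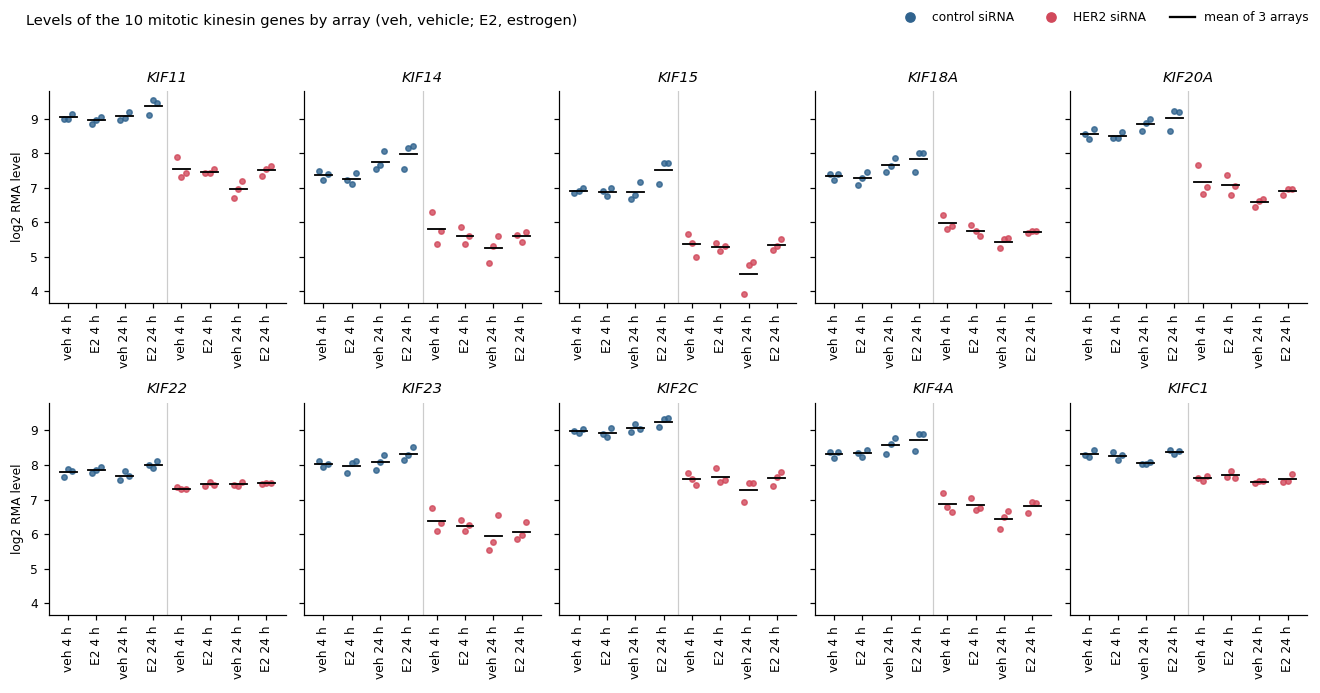
Level of each kinesin on the log2 RMA scale (vertical axis) in the 8 groups (horizontal axis), with 3 arrays per group as points and their mean as a line; control siRNA is blue and HER2 siRNA red. All 12 red points lie below all 12 blue points in every panel, by at least 0.05 in KIF22 and by 1.03 in KIF23.

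The promoters of the 10 genes were read from RefSeq (GRCh38.p14, 250 bases before to 50 after the start site). The cell cycle homology region (CHR), searched as TTTGAA or TTCGAA, is bound in G2 and M phase genes by the DREAM and MuvB complexes, and the CCAAT box, searched as CCAAT, by NF-Y. Both were searched on both strands. A CHR was found in 8 of 10 genes and in 16.4% of all 35116 windows, and within 60 bases before the start or after it in 8 of 10 against 5.44%. A CCAAT box was found in 8 of 10 genes against 34.6%, both motifs together in 7 of 10 against 6.38%, and the E2F variants TTTCCCGC, TTTGGCGC, TTTCGCGC and TTTGCCGC in 1 gene, KIF15, against 3.31%. The stretches from 100 bases before to 25 after the start are shown for 3 genes that fell by over 3-fold, for both genes that fell least, and for 1 gene whose window held neither motif as searched. They are on the gene's strand, and capitals mark the CHR and CCAAT letters or their reverse complements TTCAAA and ATTGG. The positions are chr15:69414249-69414373 (plus strand) for KIF23, chrX:70290004-70290128 (plus) for KIF4A, chr11:28108132-28108256 (minus) for KIF18A, chr6:33391723-33391847 (plus) for KIFC1, chr16:29790651-29790775 (plus) for the upstream start of KIF22 and chr1:44739737-44739861 (plus) for KIF2C.
KIF23: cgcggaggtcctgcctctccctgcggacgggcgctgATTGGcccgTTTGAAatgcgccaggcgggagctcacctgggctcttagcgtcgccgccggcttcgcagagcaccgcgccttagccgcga
KIF4A: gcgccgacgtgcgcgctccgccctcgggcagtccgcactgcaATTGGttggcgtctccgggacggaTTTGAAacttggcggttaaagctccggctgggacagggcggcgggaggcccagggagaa
KIF18A: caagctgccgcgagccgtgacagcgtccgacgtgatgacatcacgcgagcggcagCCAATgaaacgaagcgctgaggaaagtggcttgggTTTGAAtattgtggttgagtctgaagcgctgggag
KIFC1: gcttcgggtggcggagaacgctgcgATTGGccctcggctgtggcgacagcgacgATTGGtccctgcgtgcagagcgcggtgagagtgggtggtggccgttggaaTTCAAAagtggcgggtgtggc
KIF22: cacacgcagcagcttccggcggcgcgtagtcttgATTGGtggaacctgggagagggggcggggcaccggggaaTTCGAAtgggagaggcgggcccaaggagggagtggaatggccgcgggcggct
KIF2C: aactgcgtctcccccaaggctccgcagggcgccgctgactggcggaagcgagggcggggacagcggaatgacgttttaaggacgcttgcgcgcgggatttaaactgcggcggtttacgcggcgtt
KIFC1 and KIF22, which fell least, held a CHR and a CCAAT box as KIF23, KIF4A and KIF18A did. KIF2C, which fell to 34.9%, held neither motif as searched in this window, and KIF20A held 2 CCAAT boxes without TTTGAA or TTCGAA. Other spellings of the CHR were not searched, so neither gene is shown to lack one. These matches describe letters in a window and are not binding sites.

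Within each of the 4 conditions all 10 kinesins were again lower with HER2 siRNA. After 4 h with vehicle the median was -1.42 (17.8% of all genes lower), and after 4 h with estrogen it was -1.50 (17.3% lower). After 24 h it was -2.14 with vehicle (21.8% lower) and -2.01 with estrogen (20.5% lower). KIF14 kept 34.0% of the control level at 4 h with vehicle and 17.7% at 24 h with vehicle. KIF22 kept 72.1% after 4 h and 84.1% after 24 h with vehicle, and 75.4% and 68.8% with estrogen. The call for KIF22 at 24 h with vehicle (-0.25 ± 0.08, adjusted p = 0.0141, limma) ended without control vehicle 24 h replicate 2 (adjusted p = 0.103), without HER2 vehicle 24 h replicate 2 (0.0612), and with only these 2 groups in the fit (0.0719).

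**Figure D2:**
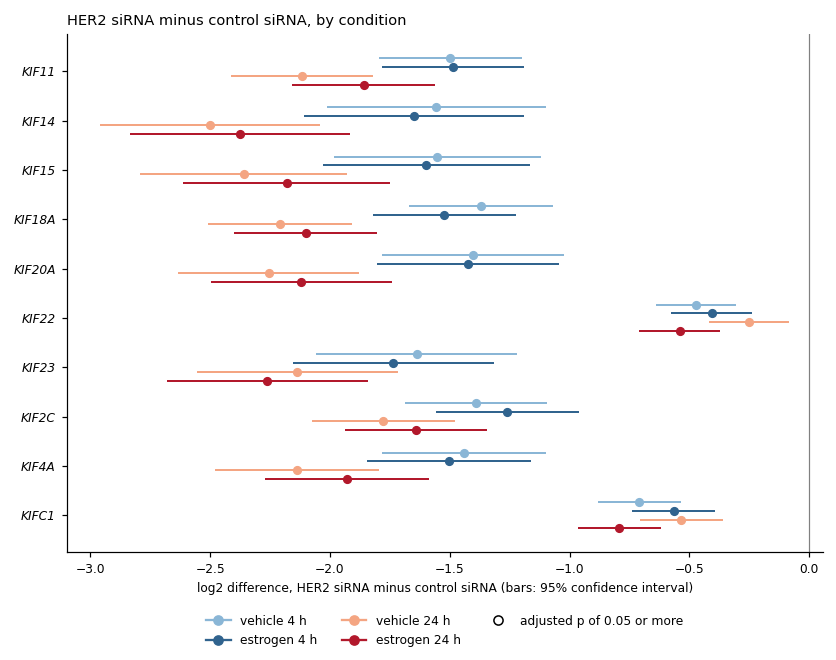
Difference between HER2 siRNA and control siRNA for each kinesin in the 4 conditions, on the log2 scale (horizontal axis), with points for the estimates and bars for their 95% confidence intervals. Every point is filled, which marks an adjusted p under 0.05. In every kinesin but KIF22 and KIFC1 both 24 h points lie to the left of both 4 h points.

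The siRNA effect was compared between times by taking the 24 h effect minus the 4 h effect, each averaged over hormone. KIF18A in 6 arrays with control siRNA ran from 7.08 through 7.33 to 7.46 at 4 h and from 7.45 through 7.74 to 8.02 at 24 h. In 6 arrays with HER2 siRNA it ran from 5.59 through 5.86 to 6.20 at 4 h and from 5.26 through 5.61 to 5.75 at 24 h. Its median was higher at the late time with control siRNA and lower with HER2 siRNA, although within each siRNA the times overlapped. The fall was deeper at 24 h by 0.71 ± 0.14 for KIF18A (adjusted p = 0.00944, limma), by 0.77 ± 0.18 for KIF20A (0.0223) and by 0.84 ± 0.22 for KIF14 (0.0418). These 3 of 10 passed where 1.22% of all genes did in that direction. The other 7 did not pass, with -0.70 ± 0.21 for KIF15 (0.0697), -0.56 ± 0.16 for KIF4A (0.0633), -0.51 ± 0.20 for KIF23 (0.184), -0.50 ± 0.14 for KIF11 (0.0599) and -0.38 ± 0.14 for KIF2C (0.156). For KIF22 the change with time was 0.04 (95% confidence interval -0.12 to 0.21), and for KIFC1 it was -0.03 (-0.19 to 0.14).

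The calls for KIF18A and KIF20A held in all 36 alternatives. That for KIF14 ended when any of 16 single arrays was left out. It held without control vehicle 24 h replicate 1, control estrogen 24 h replicate 1, HER2 vehicle 24 h replicate 3, HER2 estrogen 24 h replicate 1, control estrogen 4 h replicate 3, HER2 vehicle 4 h replicate 2, HER2 vehicle 4 h replicate 3 or HER2 estrogen 4 h replicate 2, the other 8 arrays. The count was 5 without HER2 vehicle 4 h replicate 3, 6 without control estrogen 24 h replicate 1, 7 without HER2 vehicle 24 h replicate 3, and 6 without the 3 arrays numbered apart.

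Estrogen left no kinesin past the test at 4 h. With control siRNA the 10 differences between estrogen and vehicle lay between -0.09 and 0.06 (0.342% of all genes passed in either direction), and with HER2 siRNA between -0.22 and 0.13 (0.698% passed). At an unadjusted p of 0.05 none of the 10 passed either, where 3.92% of all genes did with control siRNA and 7.41% with HER2 siRNA. The widest intervals were those of KIF14, from -0.55 to 0.36 with control siRNA and from -0.64 to 0.27 with HER2 siRNA, so changes of that size were not detectable with 3 arrays a group.

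After 24 h the estrogen differences were above 0 for all 10 kinesins with either siRNA. With control siRNA the median was 0.23 and 3 genes passed, KIF15, KIF22 and KIFC1, against 7.01% of all genes higher. KIFC1 measured 8.04, 8.03 and 8.07 with vehicle and 8.44, 8.33 and 8.40 with estrogen, and the arrays did not overlap (0.34 ± 0.08, adjusted p = 0.00647, limma). KIF22 measured 7.57, 7.84 and 7.67 with vehicle and 8.0, 7.92 and 8.11 with estrogen, again without overlap (0.32 ± 0.08, adjusted p = 0.00916). KIF15 measured 6.66, 6.78 and 7.17 with vehicle and 7.11, 7.73 and 7.72 with estrogen (0.65 ± 0.21, adjusted p = 0.0387). In KIF15 the highest vehicle array passed the lowest estrogen array, and KIFC1 and KIF22 were the only 2 of the 10 whose arrays did not overlap, against 14.5% of all genes with every estrogen array above every vehicle array. The 2 genes that fell least after HER2 siRNA were among the 3 that passed, both with a standard error of 0.08. KIF11 had a difference close to theirs with a wider error (0.30 ± 0.14) and did not pass (adjusted p = 0.187, limma). With control siRNA the mean of KIFC1 was 8.32 at 4 h with vehicle, 8.05 at 24 h with vehicle and 8.39 at 24 h with estrogen.

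The first array of both groups is among those numbered apart, and without the arrays numbered apart none of the 3 passed, with 0.75 for KIF15 (adjusted p = 0.0573), 0.31 for KIFC1 (0.0762) and 0.26 for KIF22 (0.112). The call for KIF22 ended without control vehicle 24 h replicate 1 (0.064) or control estrogen 24 h replicate 3 (0.0593), and that for KIF15 without control vehicle 24 h replicate 1 (0.15) or 2 (0.116), or control estrogen 24 h replicate 2 (0.146) or 3 (0.157). The GAPDH 3' minus 5' difference was 0.267 ± 0.011 (SD, n = 3) in the estrogen arrays and 0.362 ± 0.083 (SD, n = 3) in the vehicle arrays, and with it as a covariate KIF15 no longer passed (0.0968).

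With HER2 siRNA the 24 h estrogen differences had a median of 0.33, and 2 genes passed, KIF11 and KIF15, against 4.28% of all genes higher. KIF15 measured 3.93, 4.76 and 4.84 with vehicle and 5.18, 5.31 and 5.52 with estrogen, a difference of 0.83 ± 0.21 (adjusted p = 0.0159, limma). Its vehicle values all lay below the filter's level of 5. KIF11 measured 6.69, 6.97 and 7.20 with vehicle and 7.33, 7.55 and 7.64 with estrogen, a difference of 0.55 ± 0.14 (adjusted p = 0.0191). In both genes every estrogen array lay above every vehicle array, as it did in KIF18A and KIF20A, which did not pass, and in 11.5% of all genes. KIF22 (0.03, 95% confidence interval -0.14 to 0.19) and KIFC1 (0.08, -0.09 to 0.25) lay nearest to 0. Both calls ended without HER2 vehicle 24 h replicate 1, the array with low kinesins (KIF15 0.54, adjusted p = 0.117, and KIF11 0.42, 0.124), and without HER2 estrogen 24 h replicate 3 (0.0911 and 0.108), and that for KIF11 also without HER2 vehicle 24 h replicate 2 (0.0522) or HER2 estrogen 24 h replicate 2 (0.076). With only the 2 groups in the fit neither passed.

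**Figure D3:**
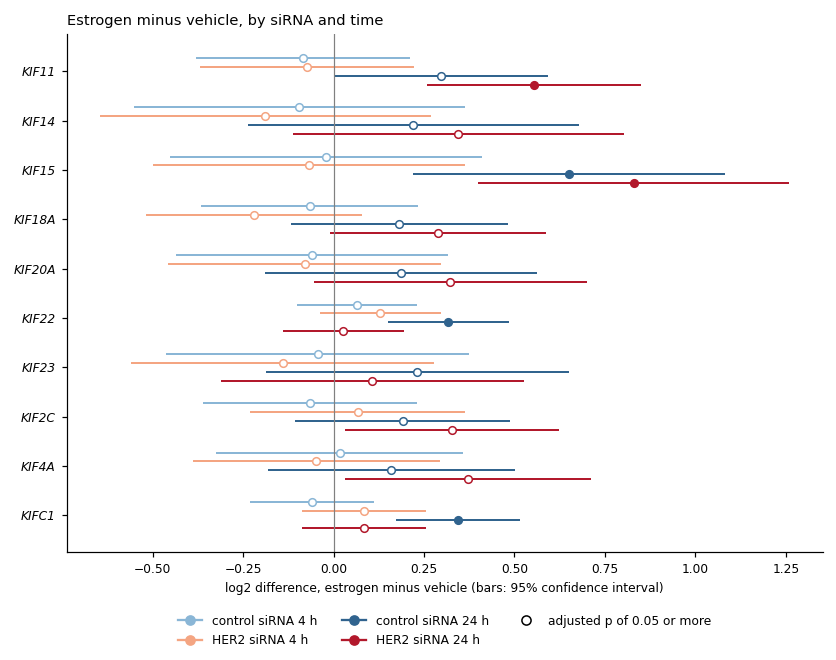
Difference between estrogen and vehicle for each kinesin by siRNA and time, on the log2 scale (horizontal axis), with points for the estimates and bars for their 95% confidence intervals; filled points pass the adjusted p of 0.05. The 4 h points sit between -0.22 and 0.13, and the 24 h points between 0.03 and 0.83.

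The estrogen effects at 24 h were compared between the siRNAs directly, as the effect with HER2 siRNA minus that with control siRNA. None of the 10 passed in limma (0.0628% of all genes did), and 2 had an unadjusted p under 0.05, as 6.04% of all genes did. These were KIF22 at -0.29 ± 0.11 (adjusted p = 0.646) and KIFC1 at -0.26 ± 0.11 (0.788). The estrogen effect at 24 h minus that at 4 h, averaged over siRNA, was above 0 for all 10, and KIF15 alone passed (0.78 ± 0.21, adjusted p = 0.0356, limma), where 2.11% of all genes passed as higher. KIF11 came next at 0.50 ± 0.14 (0.051). The call for KIF15 ended when any of 14 single arrays was left out. It held without control vehicle 24 h replicate 3, control estrogen 24 h replicate 1, any of the HER2 vehicle 24 h arrays, HER2 estrogen 24 h replicate 1, control vehicle 4 h replicate 1, control estrogen 4 h replicate 3, HER2 vehicle 4 h replicate 3 or HER2 estrogen 4 h replicate 1, the other 10 arrays. It also ended with the GAPDH difference as a covariate (0.0734). The KIF15 values in HER2 vehicle 24 h, a group of this comparison, all lay below the filter's level of 5.

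Set against the same cells at 4 h, the kinesins at 24 h went different ways in the 4 conditions. With control siRNA and vehicle none of the 10 passed (0.781% of all genes did in either direction), and 2 had an unadjusted p under 0.05, as 14.4% of all genes did. They were KIF18A at 0.31 ± 0.14 (adjusted p = 0.326, limma) and KIFC1 at -0.28 ± 0.08 (0.112). With control siRNA and estrogen all 10 differences were above 0, with a median of 0.41, and in 7 genes every 24 h array lay above every 4 h array, as in 10.7% of all genes. KIF18A measured 7.08, 7.27 and 7.46 at 4 h and 7.47, 8.0 and 8.02 at 24 h, and alone passed (0.56 ± 0.14, adjusted p = 0.0239, limma), against 2.53% of all genes higher. Its call ended without control estrogen 24 h replicate 2 (0.116) or 3 (0.136), or control estrogen 4 h replicate 1 (0.121) or 2 (0.0729). Without control estrogen 24 h replicate 1, the low array, 6 of 10 passed, KIF11, KIF14, KIF15, KIF18A, KIF20A and KIF4A. The count also rose without 4 of the HER2 siRNA vehicle arrays, to 4 without 4 h replicate 1, to 3 without 24 h replicate 1 and to 2 without 24 h replicate 3 or 4 h replicate 2.

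With HER2 siRNA and vehicle 9 of 10 differences were below 0, with a median of -0.49, and KIF11, KIF15 and KIF18A passed, against 3.43% of all genes lower. KIF15 measured 5.66, 5.40 and 5.003 at 4 h and 3.93, 4.76 and 4.84 at 24 h (-0.85 ± 0.21, adjusted p = 0.0178, limma). Its 24 h values all lay below the filter's level of 5. KIF11 went from 7.89, 7.30 and 7.42 to 6.69, 6.97 and 7.20 (-0.59 ± 0.14, adjusted p = 0.0164), and KIF18A from 6.20, 5.81 and 5.90 to 5.26, 5.51 and 5.54 (-0.53 ± 0.14, adjusted p = 0.0293). In these 3 genes and in KIF20A, which did not pass, all 24 h arrays lay below all 4 h arrays, as in 10.9% of all genes. KIF22 ran the other way, with 7.38 to 7.52 at 24 h above 7.29 to 7.35 at 4 h, a separation shown by 9.63% of all genes, and did not pass. No gene passed without HER2 vehicle 4 h replicate 1 or without HER2 vehicle 24 h replicate 1, which are among the 3 with the largest deviations, or with only the 2 groups in the fit. Without HER2 vehicle 24 h replicate 2 only KIF15 passed, without HER2 vehicle 24 h replicate 3 KIF18A was lost (0.0527) and KIF23 gained (0.0312), and without HER2 vehicle 4 h replicate 2 the count was 5. KIF18A also lost its call with the GAPDH difference as a covariate (-0.49, adjusted p = 0.0514). KIF20A joined the 3 when the replicate number entered as a block (-0.58, adjusted p = 0.0434). With HER2 siRNA and estrogen none of the 10 passed (6.21% of all genes did in either direction), and none had an unadjusted p under 0.05, where 19.5% of all genes did.

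Across the 8 groups the highest mean of all 10 kinesins was that of control estrogen 24 h. The lowest mean of 9 was that of HER2 vehicle 24 h, and for KIF22 it was HER2 vehicle 4 h (7.31 ± 0.03, SD, n = 3). Cells with HER2 siRNA and estrogen were also set against cells with control siRNA and vehicle at 24 h. All 10 kinesins were lower there, where 20.0% of all genes were, with a median of -1.67. KIF14 at -2.16 ± 0.22 kept 22.4% of the level without either treatment, and KIF15 at -1.53 ± 0.21 kept 34.6%. KIF22 at -0.22 ± 0.08 (adjusted p = 0.029, limma) no longer passed without control vehicle 24 h replicate 2 (0.178), without HER2 estrogen 24 h replicate 1 (0.0695), 2 (0.053) or 3 (0.0667), or with only these groups in the fit (0.0805). These values share arrays with the siRNA and estrogen effects at 24 h.

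Of the 10 kinesins 8 also varied together from array to array within groups. Over the 24 arrays the 28 pairs among the 8 strongest fallers had Pearson r of 0.963 to 0.993, a range that takes in the difference between the siRNAs. After the group means were taken away, r between these 8 was still 0.664 to 0.894 (median 0.804), highest for KIF15 with KIF4A. KIF22 and KIFC1 differed from that pattern. Their r with the other 8 was 0.840 to 0.934 over the 24 arrays but 0.039 to 0.314 (median 0.155) in the deviations, and 0.082 with each other. The SD within a group was 0.017 to 0.135 for KIF22 and 0.023 to 0.130 for KIFC1, and reached 0.519 in KIF23. The part of these small spreads in the low r was not tested. The points of each r share arrays and their normalisation, and no test was made. In every group at 24 h the median deviation of the kinesins was below 0 in replicate 1 (-0.294 to -0.138) and above 0 in replicate 3 (0.124 to 0.208). At 4 h the signs were mixed, from -0.047 to 0.314 in replicate 1 and from -0.092 to 0.117 in replicate 3. The part of the replicate number in these r was not tested. No r of deviations was computed for other genes, so these values are not shown to be particular to kinesins.

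**Figure D4:**
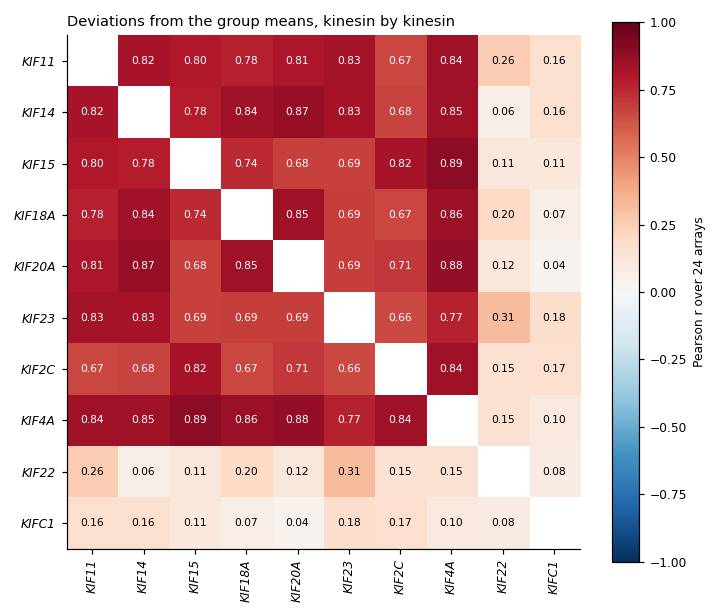
Pearson r between each pair of kinesins over the 24 arrays after subtraction of the mean of each group, with colour and number giving r. The 8 genes at the upper left correlate at 0.664 or more, while the rows and columns of KIF22 and KIFC1 stay at 0.314 or less.

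Each kinesin's level was compared with the mean profile of the 10, each scaled to its own mean and SD. Each member is itself part of the profile, which raises its r. The members' own r to that profile over 24 arrays ran from 0.898 for KIF22 and 0.947 for KIFC1 to 0.995 for KIF11. The 5 other genes most like it were the mitotic kinase PBK (r = 0.996), the centromere protein gene OIP5 (0.995), the spindle gene FAM83D (0.995), NUSAP1 (0.994), which bundles spindle microtubules, and TOP2A (0.994), which untangles sister chromatids. Of all other genes 808 had r of at least 0.9, and the median over all was -0.02. These r take in the difference between the siRNAs.

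Kinesins and partners outside the 10 were read from lists. Of 5 further kinesins of division 4 were tested, and all 4 fell after HER2 siRNA in the averaged comparison. The differences were -1.85 ± 0.07 for CENPE, which holds chromosomes to microtubule ends at the kinetochore, -1.68 ± 0.07 for KIF18B, -1.17 ± 0.07 for KIF20B and -1.07 ± 0.05 for KIF2A, with a median of -1.42, and KIF24 was below the filter. The 29 tested kinesins and light chains of transport and cilia had a median of -0.01, with 6 lower, 11 higher and 12 not past the test, where 29.1% of all genes were lower and 30.1% higher. KIFAP3, which links kinesin-2 to its cargo, rose by 0.63 ± 0.04, KIFC2 by 0.47 ± 0.05 and KIFC3 by 0.39 ± 0.05, while KIF21A, a regulator of microtubule growth, showed -1.05 ± 0.07.

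Of 24 tested partners in the spindle and midzone 21 fell and 3 rose, NUMA1, CLASP1 and CLASP2, with a median of -1.50. Over all genes tested 29.1% were lower and 30.1% higher. PRC1, the midzone crosslinker that KIF4A and KIF14 bind, fell by 1.81 ± 0.06. The difference was -2.06 ± 0.08 for ANLN, the scaffold of the contractile ring, -1.72 ± 0.07 for TPX2, which binds KIF11 and KIF15 on the spindle, and -1.56 ± 0.06 for KNSTRN. Of 10 tested tubulins 9 fell and TUBA1A rose, with a median of -1.0. TUBG1, the gamma-tubulin that starts microtubules at the poles, showed -1.71 ± 0.04, TUBA4A -1.14 ± 0.05, TUBA1C -1.04 ± 0.04 and TUBA1B -1.01 ± 0.04.

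The next list held transcription factors and DREAM or MuvB subunits of G2 and M phase genes, and also CDKN1A, which is neither. Of its 16 tested genes 10 fell and RBL2 and NFYC rose, with a median of -0.35. The 4 that did not pass were E2F4, LIN37, NFYB and CDKN1A. Over all genes tested 29.1% were lower and 30.1% higher. The differences were -1.70 ± 0.07 for FOXM1, an activator of G2 and M phase genes, -1.07 ± 0.06 for MYBL2, which joins MuvB before mitosis, -0.65 ± 0.05 for E2F5, a repressor found in DREAM, and -0.47 ± 0.04 for TFDP1, the partner of E2F proteins. In the comparison of siRNA effects between times, FOXM1 was at -0.23 (adjusted p = 0.41) and MYBL2 at 0.17 (0.514), where KIF18A was at -0.71. With estrogen at 24 h and control siRNA MYBL2 rose by 0.59 (adjusted p = 0.0015, limma).

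**Figure D5:**
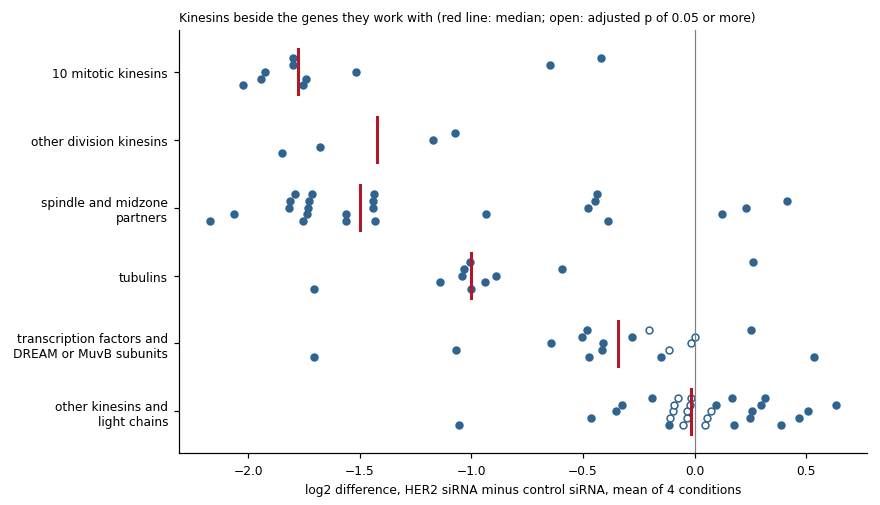
Averaged difference between HER2 siRNA and control siRNA on the log2 scale (horizontal axis) for the 10 kinesins and 5 lists of other genes, with a point per gene and a red line at the median of each list; open points did not pass the adjusted p of 0.05. The medians run from -1.78 in the mitotic kinesins to -0.01 in the other kinesins and light chains.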

How the data were processed

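Gene expression was measured on 24 Affymetrix HG-U133 Plus 2.0 arrays of total RNA from BT-474 cells. The deposited values are log2 levels, 1 per probe set and array, made by the authors with RMA, per the submitters' processing notes. The RMA version is not given in the sources used here, nor is its background correction. Arrays were placed in groups by their titles. For HER2 siRNA estrogen 4 h replicate 3 the source name says 24 h while title, description and characteristics say 4 h, and 4 h was used.

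Of 54675 probe sets, 41091 had 1 gene symbol, 1801 several and 11721 none, and 62 were controls. Probe sets with several symbols were not used. The 14335 genes past the filter were fitted with a mean for each group in limma 3.58.1 in R 4.3.3 (empirical Bayes, 20.9 total degrees of freedom), with p adjusted by Benjamini and Hochberg within each of 17 comparisons and a threshold of 0.05. The script was tested on simulated data. Alternatives were dropping the filter or raising its log2 level to 7, the replicate number as a block with or without the number series, the arrays numbered apart left out, averaged probe sets or each on its own, a fit of only the groups compared, array weights, medians made equal, quantile normalisation, a robust prior with an intensity trend, a covariate for the GAPDH 3' to 5' difference, and leaving out each array in turn. Equal replicate numbers were checked as pairs on deviations from group means. All 3 correlations were over 0.1 in 6 of 13 comparisons of 2 groups, among them 24 h against 4 h with HER2 siRNA and vehicle. Of all 84 pairs of arrays with equal numbers 60 were over 0.1, and the median r was 0.205.

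The genes named are the 10 kinesins, ERBB2, up to 4 members of each other list with the smallest adjusted p for the averaged siRNA effect, the 5 genes most like the kinesins, and genes that make up a count of 5 or fewer. The members, lists, comparisons and alternatives were chosen with earlier results of these data known. Promoter windows are RefSeq's on GRCh38.p14 and matched all 10 genes, and protein sequences were not analysed here.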

Additional observations from a re-analysis of the deposited data

Results flagged for a closer look

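The effect of HER2 siRNA differed between 4 and 24 h in 3 kinesins, by limma's test of the difference of effects. It was deeper at 24 h in KIF14 (-0.84), KIF18A (-0.71) and KIF20A (-0.77, all log2). KIF14 averaged 7.31 ± 0.14 at 4 h and 7.86 ± 0.31 at 24 h with control siRNA, and 5.71 ± 0.35 and 5.42 ± 0.33 with HER2 siRNA (SD, n = 6 arrays each). KIF20A averaged 8.53 ± 0.11 and 8.93 ± 0.26 with control siRNA, and 7.12 ± 0.33 and 6.74 ± 0.20 with HER2 siRNA. In both genes the control mean was higher and the HER2 siRNA mean lower at the late time.

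The estrogen effect on KIF15 differed between the times by 0.78. It was -0.02 with control siRNA and -0.07 with HER2 siRNA at 4 h, and 0.65 and 0.83 at 24 h. The call ended in 16 of 36 alternatives, with adjusted p between 0.0505 and 0.0755 in limma.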

How the results depend on the processing

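The averaged siRNA effect on the 10 kinesins was called in all 36 alternatives, with all 10 lower, and no called difference changed sign in any alternative run. For single kinesins over all comparisons, 6095 results kept their side of the threshold, 79 lost and 86 gained a call. The counts that moved by over 1.5 times were those of smaller differences. Without the arrays numbered apart, estrogen with control siRNA at 24 h had 0 calls, the siRNA effect by time 6, the estrogen effect by time 2, and 24 h against 4 h with control siRNA and estrogen 6. With only the groups compared in the fit, the count was 1 for estrogen with control siRNA at 24 h and 0 for estrogen with HER2 siRNA at 24 h and for 24 h against 4 h with either control siRNA and estrogen or HER2 siRNA and vehicle. With the replicate block the siRNA effect by time had 6 calls, with KIF11 (adjusted p = 0.0303), KIF15 (0.043) and KIF4A (0.0455) added, the estrogen effect by time 2, and 24 h against 4 h with control siRNA and estrogen 3, and the last 2 were 2 and 3 with the block and number series together. With the stricter filter these 3 counts were 6, 2 and 3, with array weights 6, 2 and 7, and with equal medians 5, 2 and 2. With an intensity trend and robust prior the siRNA effect by time had 5 calls. The estrogen effect by time had 2 calls with that prior, quantile normalisation or the mean of probe sets, and 0 with each probe set on its own or the GAPDH covariate. Where replicate numbers pair the arrays, the paired fit changed no other call than that of KIF20A.

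Leaving out each array in turn gave 1 to 3 calls for estrogen with control siRNA at 24 h, 0 to 2 with HER2 siRNA, 2 to 7 for the siRNA effect by time, 0 to 3 for the estrogen effect by time, 0 to 6 for 24 h against 4 h with control siRNA and estrogen, and 0 to 5 with HER2 siRNA and vehicle. It gave 9 to 10 for HER2 siRNA with vehicle at 24 h and for HER2 siRNA with estrogen against control siRNA with vehicle. KIF15 with vehicle at 24 h lay at 3.93 to 4.84 with HER2 siRNA, below the filter's level of 5. The cause of these moves was not tested.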

Other observations

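The lists around the kinesins were also read in the smaller comparisons, and the genes named here were picked after their values were seen. In the siRNA effect by time CENPE was lower by 0.72 on the log2 scale (-0.72, adjusted p = 0.00812, limma), the only 1 of 4 further division kinesins past the test, and 4 of 24 spindle partners were lower, against 1.22% of all genes, with -0.96 for ASPM, which sits at spindle poles, and -0.88 for HMMR. None of 10 tubulins and none of 29 kinesins and light chains of transport passed, in limma. Among the 16 tested genes of the list of transcription factors, DREAM or MuvB subunits and CDKN1A only NFYA passed (-0.48, adjusted p = 0.00466, limma). It encodes a subunit of the CCAAT-binding factor NF-Y.

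With estrogen at 24 h and control siRNA 7.01% of all genes were higher and 6.52% lower. Estrogen raised KIF18B (0.57, adjusted p = 0.0132, limma) among the further division kinesins. Estrogen raised AURKB, INCENP, BIRC5 and KNSTRN and lowered NUMA1 among the spindle partners, with 0.64 for AURKB. Of the transcription factors and DREAM or MuvB subunits MYBL2, E2F4, TFDP1 and LIN9 were higher and LIN37 lower (-0.41). With HER2 siRNA 2 of 4 further division kinesins and 6 of 24 spindle partners were higher, against 4.28% of all genes.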
